A study of Mus musculus with 6 samples.

Results

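The ATF4 amino acid response and serine synthesis genes described here are 10 genes chosen by name: Atf4 itself, its stress targets Ddit3, Asns, Trib3, Chac1 and Sesn2, and the serine and one-carbon enzymes Phgdh, Psat1, Shmt2 and Mthfd2. All 10 were found among the 23337 genes of the count table, and all 10 were among the 13272 genes with enough counts to be tested. Read counts came from polyA-selected RNA of sorted leukaemia initiating cells (LICs), the cells that can start a leukaemia anew, from Mus musculus. One group of 3 libraries was adult (replicates 1, 2 and 4) and the other group of 3 was neonatal (replicates 4, 7 and 8). Per the labels, the material of both groups is haematopoietic stem and progenitor cells. The labels name no strain, driver gene, treatment or age in days, and leave unsaid whether the replicates are different animals, so that p-values here reflect the spread among these samples alone and may be technical.

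ATF4 is the transcription factor of the integrated stress response. When amino acids run short or proteins misfold, kinases phosphorylate the translation factor eIF2 alpha, most protein synthesis slows, and the Atf4 mRNA is translated more because of short upstream reading frames. The level of Atf4 mRNA therefore does not give the level of ATF4 protein, which was not measured here. ATF4 switches on genes that make, import or save amino acids, among them asparagine synthetase and the enzymes that turn a glycolytic intermediate into serine and pass its carbon to folate for nucleotide synthesis.

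Library totals were 60113466 to 66132051 counts in 5 libraries and 3932833 counts in neonatal replicate 4, which the others exceeded 16.2-fold on average. A gene with no count could hold up to 3 counts, a limit for counting error only. In CPM, the unit of counts divided by library size, this limit is 0.763 for neonatal replicate 4 and no more than 0.0499 for the others. Neonatal replicate 4 also differed by gene length. Its median log2 difference from neonatal replicates 7 and 8 was 0.95 over 2617 genes with under 1.5 kb of exon. The median was -0.14 over 4783 genes with 1.5 to 3 kb and -0.75 over 5872 genes with over 3 kb. All of the 10 genes but Ddit3, which is shorter, have 1.5 to 3 kb. Xist was at 51.7 to 186 CPM in neonatal and at most 0.919 CPM in adult libraries, and Ddx3y, on the Y chromosome, at 98.8 to 154 CPM in adult libraries with 1 count in the neonatal ones, so sex and age group cannot be told apart. The 8 progenitor markers summed to 2830 to 12400 CPM among adult and 3340 to 3600 CPM among neonatal libraries, 4 of 8 with a higher neonatal mean and none at 0. Ptprc ranged from 263 to 323 CPM in adult and from 144 to 271 CPM in neonatal libraries. Myb ranged from 813 to 1400 and from 683 to 910 CPM, and for both genes the groups overlapped in part. Cd34 ranged from 8.16 to 105 CPM in the adult group and from 396 to 662 CPM in the neonatal one, Flt3 from 4.58 to 19.4 and from 256 to 1230 CPM, and Mpo from 1100 to 10400 and from 61 to 1980 CPM. The 10 markers of mature neutrophils summed to 1850 to 14900 CPM in adult and 79.6 to 292 CPM in neonatal libraries, all 10 with a higher adult mean, and none was at 0 throughout. The 9 macrophage markers in the table summed to 136 to 659 CPM in adult and 64.3 to 202 CPM in neonatal libraries. For erythroid, T and NK cell markers the sum was at most 4.1 CPM in any library, with 4 of 8 and 5 of 9 genes at 0 throughout, and for B cell markers 38.8 to 70.2 CPM in adult and 73.3 to 151 CPM in neonatal libraries, with Ms4a1 and Pax5 at 0.

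The sequences below show matches near 3 of these genes to the C/EBP-ATF response element, the motif that ATF4 binds with its C/EBP partners. Binding was not measured here. Promoters of all 10 genes, 11 in number with 2 for Psat1, were matched in RefSeq sequence of build GRCm38.p6, the assembly that mm10 also names, as 250 bases before and 50 after the start of each gene. The motif TGATGNAA, searched on both strands, was found once each at Asns, Trib3 and Chac1 and in none of the other 8 promoters. It was in 3.97% of all 32851 promoters of this length. Each window has 30 bases, reads 5′ to 3′ on the strand that carries the motif, and has the motif in capitals.
Asns, chr6:7693214-7693243, minus strand: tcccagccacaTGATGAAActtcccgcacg
Trib3, chr2:152344028-152344057, plus strand: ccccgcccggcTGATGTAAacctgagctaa
Chac1, chr2:119351038-119351067, minus strand: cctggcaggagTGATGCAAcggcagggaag

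The Asns site began 23 bases before the gene's RefSeq start and the Chac1 site 193 bases before it, both outside the transcript, while the Trib3 site began at base 15 of its first exon. Asns had the motif on its coding strand, and Trib3 and Chac1 had it on the other strand. The 100 bases directly upstream of Asns (chr6:7693210-7693309, minus strand), the gene with the lowest log2 fold change of the 10, are shown with the motif in capitals.
Asns upstream: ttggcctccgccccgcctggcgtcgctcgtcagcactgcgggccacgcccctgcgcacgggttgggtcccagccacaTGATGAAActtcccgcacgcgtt

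Neonatal and adult LICs were compared to ask how the pathway differs between leukaemias of the 2 ages. Atf4 itself was nearly level, Asns was lower in neonatal LICs, and the serine enzymes Phgdh, Psat1 and Shmt2 were higher, but none of the 10 genes passed edgeR's quasi-likelihood test over all genes on 6 libraries. At an unadjusted p under 0.05, Phgdh was higher and Asns lower, as were 4.93% and 7.01% of all genes. DESeq2, limma voom and edgeR's likelihood ratio test also called 0 of the 10, with 5.72%, 0.0527% and 4.48% of all genes called. Limma voom with library quality weights called Asns and Shmt2, and 7.96% of all genes. Over all genes, edgeR called 0.0151% higher and 0.0377% lower. Without neonatal replicate 4 the same test called 1 of the 10, Sesn2, as higher and 0 as lower, where it called 3.72% of 13856 genes higher and 2.25% lower. The 3 genes with the motif had the 3 lowest log2 fold changes on 6 libraries, while without neonatal replicate 4 Mthfd2 (-1.08) lay below Chac1 (-0.99). Trib3 and Chac1 had 0 counts in neonatal replicate 4 and SEs of 1.02 and 0.95. A link between the motif and the fold changes was not tested. Exon length of the 10 ran from 871 to 2655 bases.

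**Figure D1:**
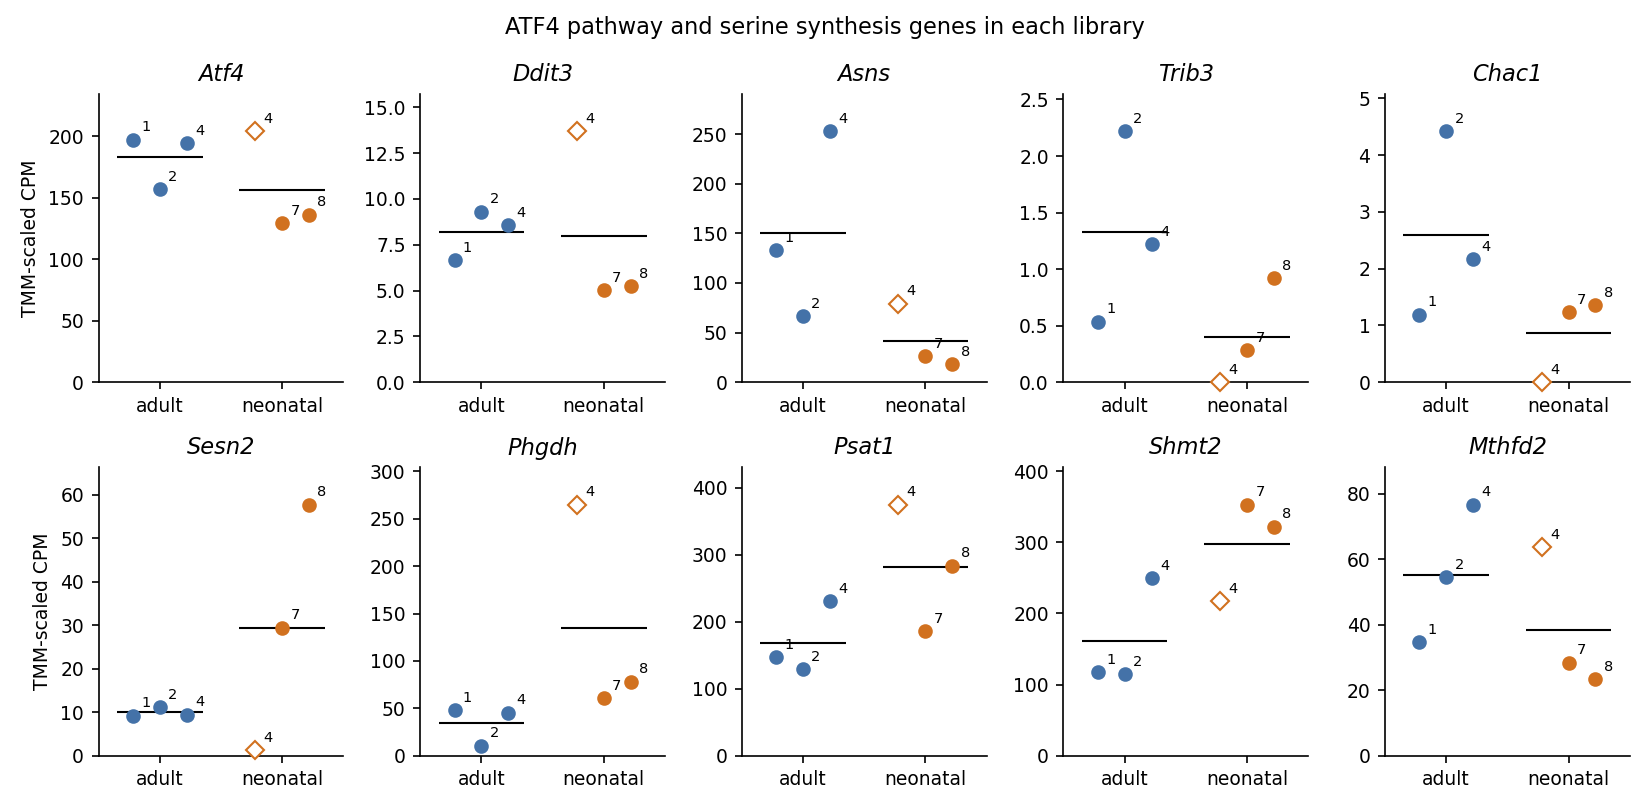
Level of each of the 10 genes in each library, in TMM-scaled CPM on linear axes that start at 0. Points are libraries with their replicate number, open diamonds are neonatal replicate 4, and lines are group means. Only Phgdh has all 3 neonatal points above all 3 adult points. Neonatal replicate 4 lies apart from replicates 7 and 8 for several genes, among them Phgdh, Sesn2, Ddit3, Asns and Mthfd2.

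Atf4 (chromosome 15, 80255184 to 80257541, mm10) had levels of 197, 157 and 194 CPM in adult replicates 1, 2 and 4, against 204, 129 and 136 CPM in the neonatal replicates 4, 7 and 8. Neonatal replicates 7 and 8 were below every adult library, and neonatal replicate 4 was above them. The log2 fold change, neonatal minus adult, was -0.23 ± 0.30 (SE, adjusted p = 0.836 by edgeR), and -0.45 ± 0.18 without neonatal replicate 4 (adjusted p = 0.160 by edgeR). Over 21 alternatives with edgeR, limma or DESeq2 the adjusted p ran from 0.093 to 0.970. Atf4 varied less among libraries than Asns or Phgdh did. Its mean-centred log2 levels had a root mean square of 0.26, against 1.29 for Asns and 1.36 for Phgdh.

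Ddit3 (chromosome 10, 127290793 to 127296288), which encodes CHOP, the partner of ATF4 that promotes cell death under lasting stress, had levels of 6.65, 9.30 and 8.57 CPM in adult replicates 1, 2 and 4. Neonatal replicates 7 and 8 held 5.01 and 5.25 CPM, below every adult library, and neonatal replicate 4 held 13.7 CPM (46 counts, exact Poisson 95% interval 10.1 to 18.3 CPM), above every one. Ddit3 is the shortest of the 10 by exon length, at 871 bases, and 68 of its exon bases are shared with Mars on the other strand, which counts without strand cannot separate. Its log2 fold change was -0.07 ± 0.53 (SE, adjusted p = 0.977 by edgeR), and -0.66 ± 0.39 without neonatal replicate 4 (adjusted p = 0.305 by edgeR), with 0.180 to 0.999 over the same alternatives.

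Asns (chromosome 6, 7675171 to 7693182), asparagine synthetase, makes asparagine from aspartate, and leukaemia cells low in it depend on asparagine from outside, which is the basis of asparaginase treatment. Adult replicates 1, 2 and 4 held 133, 66.2 and 253 CPM of it. Neonatal replicates 4, 7 and 8 held 79.2, 26.5 and 18.1 CPM. Adult replicate 2 lay below neonatal replicate 4 (265 counts, exact Poisson 95% interval 70.0 to 89.3 CPM), and the groups otherwise did not overlap. The mean level was 151 ± 94.6 CPM for adult LICs, compared with 41.3 ± 33.1 CPM for neonatal ones (SD over 3 libraries). The log2 fold change was -1.89 ± 0.68 (SE, adjusted p = 0.332 by edgeR). Without neonatal replicate 4 it was -2.74 ± 0.60 (adjusted p = 0.0512 by edgeR), just short of the threshold. DESeq2 on the same 5 libraries gave an adjusted p of 6.42e-06, in a setting that called 24% of all genes. Over 21 alternatives the sign never changed, and the adjusted p ran from 6.42e-06 to 0.632. Marker genes differed beside it. Of the 8 progenitor markers, Kit, Cd34, Flt3 and Meis1 had a higher neonatal mean, and the others, Mpo among them, a higher adult mean. Mpo, which encodes a granule enzyme of myeloid progenitors, was at 1870, 1100 and 10400 CPM in the adult replicates 1, 2 and 4, then 1980, 672 and 61 CPM in neonatal ones, and like Asns was highest in adult replicate 4 and lowest in neonatal replicate 8. The neutrophil marker sum was lower in every neonatal library, and among adult libraries it was 1850 CPM in replicate 4 and 14900 CPM in replicate 2, where Asns was highest and lowest. The part of these cell types in the Asns difference was not tested. In bulk samples, fewer cells of a type and less RNA per cell cannot be told apart.

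Trib3 (chromosome 2, 152337425 to 152344060), a pseudokinase that ATF4 and CHOP induce and that damps their activity, was the lowest of the 10 genes per length in both groups. The adult libraries held 0.536, 2.22 and 1.22 CPM, and neonatal replicates 7 and 8 held 0.283 and 0.919 CPM. Neonatal replicate 4 had 0 counts, which allows up to 0.897 CPM after TMM scaling, more than the level in adult replicate 1. Chac1 (chromosome 2, 119351242 to 119354327), an enzyme that degrades glutathione and is an early target of ATF4, had 1.19, 4.42 and 2.17 CPM in the adult libraries, with 1.23 and 1.36 CPM for neonatal replicates 7 and 8. It too had 0 counts in neonatal replicate 4, where the limit of 0.897 CPM is below every adult library. Both genes had their highest level in adult replicate 2. Their log2 fold changes were -1.49 ± 1.02 and -1.41 ± 0.95 (SE, adjusted p = 0.642 and 0.634 by edgeR).

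Sesn2 (chromosome 4, 132492807 to 132510456) encodes sestrin 2, a leucine sensor that restrains the growth kinase mTORC1 when amino acids are scarce. The adult libraries lay close together at 9.20, 11.2 and 9.41 CPM (9.95 ± 1.12 CPM, SD, n = 3). Neonatal replicates 7 and 8 held 29.4 and 57.7 CPM, above every adult library, and neonatal replicate 4 held 1.20 CPM (4 counts, exact Poisson 95% interval 0.326 to 3.06 CPM), below every one. On 6 libraries the log2 fold change was 1.58 ± 0.95 (SE, adjusted p = 0.578 by edgeR). Without neonatal replicate 4 it was 2.14 ± 0.34, a 4.41-fold rise that passed (adjusted p = 0.0360 by edgeR). Sesn2 has the longest exons of the 10, at 2655 bases. With each library's trend on exon length removed, all 6 libraries gave 1.46 ± 0.87 (SE, adjusted p = 0.583 by edgeR). The adjusted p ran from 8.3e-07 to 0.900 over 21 alternatives, and the 4 that called Sesn2 all left out neonatal replicate 4.

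Phgdh (chromosome 3, 98313171 to 98339969) encodes the first and rate-limiting enzyme of serine synthesis. Adult replicates 1, 2 and 4 held 47.9, 10.7 and 45.4 CPM, and neonatal replicates 4, 7 and 8 held 265, 60.7 and 78.1 CPM. Every neonatal library was above every adult one, as in 7.67% of all genes tested, and 12% of genes had the reverse order. The level in neonatal replicate 4 rested on 887 counts (exact Poisson 95% interval 248 to 283 CPM). The log2 fold change was 1.95 ± 0.74 (SE, adjusted p = 0.359 by edgeR). It was 1.01 ± 0.59 without neonatal replicate 4 (adjusted p = 0.3 by edgeR) and 1.84 ± 0.71 with the length trend removed (adjusted p = 0.365 by edgeR), and the adjusted p ran from 0.0888 to 0.635 over the 21 alternatives. GENCODE lists a pseudogene, Phgdh-ps1, and reads shared with such a copy could not be told apart in these counts.

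Psat1 (chromosome 19, 15905123 to 15925059), the aminotransferase of the second step of serine synthesis, had 147, 129 and 231 CPM in the adult libraries, against 375, 186 and 284 CPM in the neonatal replicates 4, 7 and 8. The groups overlapped only in that adult replicate 4 lay above neonatal replicate 7. The log2 fold change was 0.73 ± 0.38 (SE, adjusted p = 0.507 by edgeR). Psph, the phosphatase of the last step, had 105, 62.8 and 41.1 CPM in adult replicates 1, 2 and 4, against 129, 47.5 and 57.6 CPM in the neonatal replicates 4, 7 and 8, without the order seen for Phgdh.

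Shmt2 (chromosome 10, 127517123 to 127522444), the mitochondrial enzyme that splits serine into glycine and a one-carbon unit on folate, had 117, 115 and 250 CPM in the adult libraries. Neonatal replicates 4, 7 and 8 held 217, 353 and 322 CPM. Replicates 7 and 8 were above every adult library, and neonatal replicate 4 lay just below adult replicate 4. The log2 fold change was 0.89 ± 0.40 (SE, adjusted p = 0.449 by edgeR) and 1.08 ± 0.36 without neonatal replicate 4 (adjusted p = 0.109 by edgeR). Over the 21 alternatives the adjusted p ran from 0.0265 to 0.841. Limma voom with quality weights and DESeq2 without neonatal replicate 4 called Shmt2, as they did 7.96% and 24% of all genes. Ndufa4l2, on the other strand, shares 34 exon bases with Shmt2.

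Mthfd2 (chromosome 6, 83305704 to 83317604) encodes the mitochondrial dehydrogenase and cyclohydrolase that acts on the folate carbon released by Shmt2. The adult libraries held 34.7, 54.4 and 76.6 CPM. Neonatal replicate 4 held 63.7 CPM, within the adult range, and replicates 7 and 8 held 28.4 and 23.4 CPM, below it. Its log2 fold change was -0.54 ± 0.48 (SE, adjusted p = 0.736 by edgeR), and -1.08 ± 0.36 without neonatal replicate 4 (adjusted p = 0.106 by edgeR). DESeq2 without that replicate called it, as it did 24% of all genes, with the lowest adjusted p of the 21 alternatives, 0.025, and the highest was 0.944. Shmt2 and Mthfd2, a pair of the mitochondrial folate route, had opposite signs, Shmt2 above 0 and Mthfd2 below, in every one of 21 alternatives. The alternatives reuse the same libraries, so a constant sign is no replication. The quasi-likelihood test of edgeR called neither gene with or without neonatal replicate 4.

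**Figure D2:**
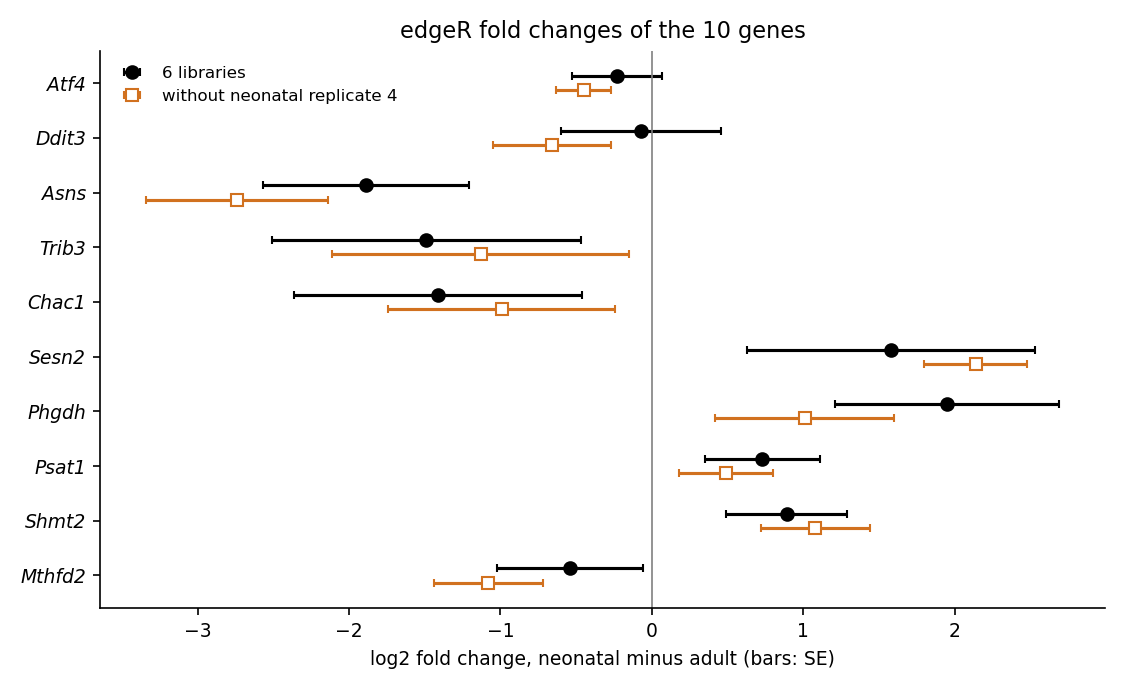
Log2 fold change of each gene, neonatal minus adult, from edgeR's quasi-likelihood fit, with bars of 1 approximate SE. Black points use 6 libraries and open squares leave out neonatal replicate 4. Asns, Trib3 and Chac1 lie lowest on 6 libraries, and Sesn2 moves from 1.58 to 2.14 with a narrower error once that library is left out.

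Levels of different genes were compared as CPM per kilobase of exon. In adult LICs Atf4 was highest at 106 ± 12.9, followed by Asns at 78.1 ± 49.1, Shmt2 at 69.6 ± 33.5 and Psat1 at 67.8 ± 21.8 (SD, n = 3 each). Neighbours among these 4 did not differ beyond their spread. Mthfd2 at 26.7 ± 10.1 and Phgdh at 18.5 ± 11.1 came next and lay within each other's spread. Ddit3 at 9.39 ± 1.57, Sesn2 at 3.75 ± 0.422, Chac1 at 1.65 ± 1.06 and Trib3 at 0.645 ± 0.413 CPM per kilobase were lowest. In neonatal LICs Shmt2 at 129 ± 31.0 and Psat1 at 113 ± 38.0 stood first, followed by Atf4 at 90.6 ± 23.8 and Phgdh at 72.0 ± 60.6 (SD, n = 3 each), and these neighbours again lay within their spread. Asns at 21.4 ± 17.2 and Mthfd2 at 18.6 ± 10.6 were next (SD, n = 3 each), then Sesn2 at 11.1 ± 10.6, Ddit3 at 9.19 ± 5.72, Chac1 at 0.551 ± 0.479 and Trib3 at 0.195 ± 0.229 CPM per kilobase. Asns moved from the second place in adult to the fifth in neonatal LICs, and Phgdh from the sixth to the fourth. These neonatal places rest in part on neonatal replicate 4. From replicates 7 and 8 alone, Asns was at 11.6 CPM per kilobase and in the seventh place, below Sesn2 at 16.4 and Mthfd2 at 12.5, and Phgdh was at 37.1 and still in the fourth.

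A ratio of 2 genes inside a library does not depend on how libraries are scaled to each other. Ratios were examined after the single genes had been seen, so they are given without a test. Of the 28 pairs that can be formed without Trib3 and Chac1, 12 had groups that did not overlap, and 5 of the 7 pairs with Asns were among them. The pairs share genes and are not independent. The share over gene pairs at large was not computed, so whether these counts exceed it is not known. The log2 ratio of Asns to Phgdh, in reads per exon base, was 1.43, 2.58 and 2.43 in adult replicates 1, 2 and 4. In neonatal replicates 4, 7 and 8 it was -1.79, -1.24 and -2.15. Every adult library thus held more Asns than Phgdh RNA per length and every neonatal library less, and the gap between the groups, 2.66, was the widest of the 28 pairs. Neonatal replicate 4 lay between replicates 7 and 8 in this ratio.

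The ratio of Asns to Psat1 was -0.59 to 0.50 in adult and -3.60 to -1.87 in neonatal libraries (log2), and that of Asns to Shmt2 was -0.54 to 0.44 and -3.89 to -1.19. Against Atf4, Asns was at -1.4 to 0.22 in adult and -3.07 to -1.52 in neonatal libraries, a gap of 0.12. Ratios of Asns to genes at large were often lower too. Among 11832 genes with a count in every library, 35.4% had an Asns ratio lower in all neonatal than in all adult libraries. A gap as wide as that of Phgdh was found for 0.355% of these genes, and as wide as that of Psat1 for 3.62%. For the gap of Shmt2 the share was 15.5%, and for that of Atf4 31.8%. The pair with Phgdh was picked as the widest in these same libraries, so its share is a description and no test.

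**Figure D3:**
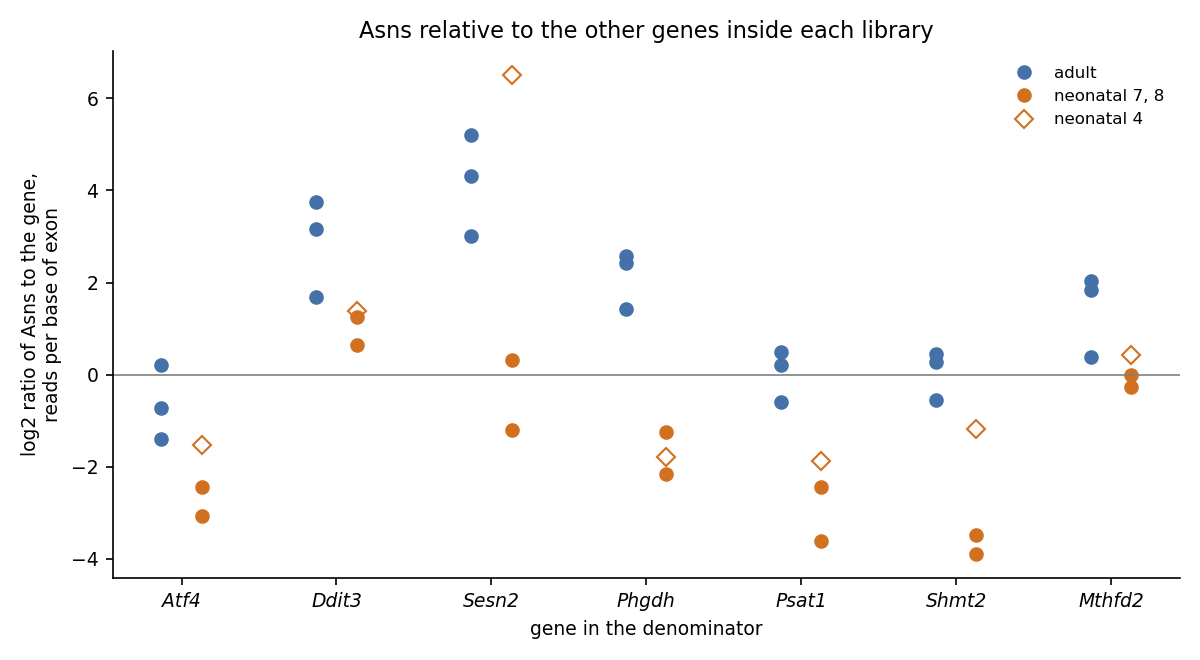
Log2 ratio of Asns to each of 7 other genes in reads per base of exon, inside each library. Adult libraries are blue, neonatal replicates 7 and 8 filled orange and neonatal replicate 4 an open diamond. For Phgdh all adult points are above 0 and all neonatal points below it, and for Sesn2 neonatal replicate 4 lies apart at 6.51.

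The wider pathway was followed in 7 lists with 111 genes, 107 of them tested. Of these 107 genes, edgeR called 0 in either direction on 6 libraries, DESeq2 and the likelihood ratio test called 4 each, limma voom with quality weights 6 and limma voom 0. Over all genes these tools called 5.72%, 4.48%, 7.96% and 0.0527%. At an unadjusted p under 0.05 edgeR had 4 higher and 5 lower, against 4.93% and 7.01% of all genes. The median log2 fold change was 0.12, against 0.05 over all genes tested, of which 7106 of 13272 were positive. Without neonatal replicate 4, edgeR called 5 higher and 1 lower of 108, against 3.72% and 2.25% of all genes. The shares of the listed genes were near or below these.

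The kinases and phosphatase subunits that act on eIF2 alpha, upstream of ATF4, had a median of 0.00 over 9 tested genes, 4 positive and 5 negative. Eif2ak3 encodes PERK, the kinase of the endoplasmic reticulum. Adult libraries held 21.6 to 23.5 CPM, neonatal replicates 7 and 8 held 44.9 and 41.5 CPM, and neonatal replicate 4 held 10.8 CPM, the same order as Sesn2. It rose without that replicate (log2 fold change 0.96, adjusted p = 0.0478 by edgeR), and on 6 libraries its value was 0.54 (adjusted p = 0.749 by edgeR). Its adjusted p ran from 5.72e-05 to 0.953 over 21 alternatives, and the 4 that called it left out that library. Eif2ak4, which encodes GCN2, the sensor of uncharged tRNA, had a log2 fold change of -0.30 ± 0.48 (SE, adjusted p = 0.869 by edgeR). Without neonatal replicate 4 its sign turned, to 0.08 ± 0.24 (SE). Impact, whose protein inhibits GCN2 activation, ranged from 14.1 to 26.8 CPM among adult and from 6.86 to 10.8 CPM among neonatal libraries without overlap (log2 fold change -1.16 ± 0.41, SE, adjusted p = 0.314 by edgeR). Eif2ak2, encoding the RNA-activated kinase PKR, was at 24.2 to 33.1 and 12.6 to 19.6 CPM (log2 fold change -0.82 ± 0.34, SE, adjusted p = 0.399 by edgeR). Ppp1r15a, the stress-induced phosphatase subunit GADD34 that ends the response, ranged from 5.33 to 7.89 CPM among adult libraries, while neonatal replicates 4, 7 and 8 held 5.08, 12.6 and 18.4 CPM (log2 fold change 0.94 ± 0.53, SE, adjusted p = 0.549 by edgeR).

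The bZIP partners and relatives of ATF4 had a median of -0.46 over 11 tested genes, 8 of them negative. Cebpd ranged from 101 to 200 CPM among adult and from 37.8 to 98.3 CPM among neonatal libraries without overlap (log2 fold change -1.15 ± 0.45, SE, adjusted p = 0.371 by edgeR). Cebpb, a partner with which ATF4 binds the response element and also a myeloid factor, was at 288 to 446 CPM in adult and 184 to 321 CPM in neonatal libraries. Nfe2l2 had a log2 fold change of 0.62 ± 0.45 (SE), and Nfe2l1, which drives proteasome genes, rose without neonatal replicate 4 (1.30, adjusted p = 0.0360 by edgeR), with 0.82 on 6 libraries (adjusted p = 0.682 by edgeR) and adjusted p values of 3.23e-08 to 0.938 over the alternatives.

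The other stress targets had a median of 0.69 over 19 tested genes, 13 positive and 6 negative, against 0.05 over all genes. Ddit4, whose protein REDD1 restrains mTORC1 as sestrin 2 does, ranged from 0.788 to 1.16 CPM among adult libraries. Neonatal replicates 7 and 8 held 7.78 and 11.1 CPM, and neonatal replicate 4 held 0.897 CPM. It rose without that replicate (log2 fold change 3.26, adjusted p = 0.0360 by edgeR), and DESeq2 also called it on 6 libraries. Its adjusted p ran from 1.37e-09 to 0.573 over 20 alternatives. Vldlr, a lipoprotein receptor, had 0 counts in the adult libraries and 4, 31 and 27 counts in neonatal replicates 4, 7 and 8, at least 43.2-fold higher than a limit of 3 counts over the adult group, and at least 26.7-fold with replicates 7 and 8 alone (adjusted p = 0.140 by edgeR). With Vldlr at that bound the list's median was also 0.69. Nupr1, a stress-induced chromatin protein, had 5.97, 1.01 and 0.296 CPM in adult replicates 1, 2 and 4, against 0.299, 0.0283 and 0.0741 CPM in the neonatal replicates 4, 7 and 8, the last 3 resting on 1, 2 and 5 counts (adjusted p = 0.244 by edgeR). Tnfrsf10b, a death receptor that CHOP induces, had a log2 fold change of -0.67 ± 0.65 (SE, adjusted p = 0.758 by edgeR).

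The amino acid transporters had 10 of 12 tested genes positive, with a median of 0.51. Without neonatal replicate 4 it was 12 of 13, with a median of 0.84. Over all genes 7106 of 13272 were positive on 6 libraries. Without that replicate it was 6647 of 13856, with a median of -0.05. Exon lengths of the transporters ran from 2371 to 9227 bases, and the part of length in the higher median was not tested. Slc7a1, the carrier of arginine and lysine, ranged from 13.9 to 16.1 CPM among adult libraries. Neonatal replicates 7 and 8 held 41.3 and 38.7 CPM, and neonatal replicate 4 held 14.9 CPM. It rose without that replicate (log2 fold change 1.39, adjusted p = 0.0360 by edgeR) and had 1.05 ± 0.43 on 6 libraries (SE, adjusted p = 0.392 by edgeR), with 4.83e-08 to 0.720 over the alternatives. Slc38a7 followed the same order, with 5.85 to 12.1 CPM among adult libraries, 21.8 and 22 CPM for neonatal replicates 7 and 8, and 7.77 CPM for neonatal replicate 4. The genes negative on 6 libraries, Slc7a3 and Slc1a4, were at most 1.57 CPM in any library, and each was at 0 in at least 2 libraries.

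Aminoacyl-tRNA synthetases, which load amino acids onto tRNA, had a median of -0.01 over 20 tested genes, 10 in each direction. Vars ranged from 187 to 354 CPM among adult libraries. Neonatal replicates 7 and 8 held 622 and 915 CPM, and neonatal replicate 4 held 76.8 CPM. It rose without that replicate (log2 fold change 1.63, adjusted p = 0.0450 by edgeR). Dars fell without it (-0.80, adjusted p = 0.0494 by edgeR), from 604 to 650 CPM among adult libraries to 328 and 383 CPM for neonatal replicates 7 and 8, and neonatal replicate 4 held 574 CPM. On 6 libraries the edgeR adjusted p was 0.642 for Vars and 0.561 for Dars, and over the alternatives it ran from 7.59e-05 to 0.920 and from 6.86e-05 to 0.884. Farsa and Lars had log2 fold changes of 0.62 ± 0.30 and -0.59 ± 0.29 (SE).

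The other serine, glycine and one-carbon enzymes had a median of 0.16 over 21 tested genes, 15 positive and 6 negative. Aldh1l2, the mitochondrial enzyme that burns formyl-folate to carbon dioxide, had 40, 29 and 40 counts in adult replicates 1, 2 and 4 and 0 in the neonatal libraries. Against a limit of 3 counts over the neonatal group, it was at least 27.1-fold lower there (adjusted p = 0.141 by edgeR), from an adult mean of only 0.575 ± 0.126 CPM (SD, n = 3), and the list's median with Aldh1l2 at that bound was also 0.16. In neonatal replicate 4 the floor is above that adult mean, so its 0 there is not informative. Ahcy, which clears the by-product of methylation reactions, was at 76.6 to 109 CPM in adult and 122 to 181 CPM in neonatal libraries without overlap (log2 fold change 0.66 ± 0.30, SE, adjusted p = 0.443 by edgeR). Gart, a purine synthesis enzyme that uses folate carbon, had a log2 fold change of 0.62 ± 0.40, and Slc25a32, the mitochondrial folate carrier, -0.22 ± 0.35 (SE each).

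Chaperones and sensors of the other arms of the endoplasmic reticulum response had a median of -0.03 over 16 tested genes, 8 in each direction, and edgeR called none of them with or without neonatal replicate 4. DESeq2 without that replicate called 3 of 16, Dnajc3, Hyou1 and Xbp1, where it called 24% of all genes. Calr and Creld2 had the smallest p-values among the positive genes (log2 fold changes 0.56 ± 0.36 and 0.37 ± 0.32, SE), and Hsp90b1 and Dnajc3 among the negative ones (-0.46 ± 0.33 and -0.44 ± 0.33, SE).

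**Figure D4:**
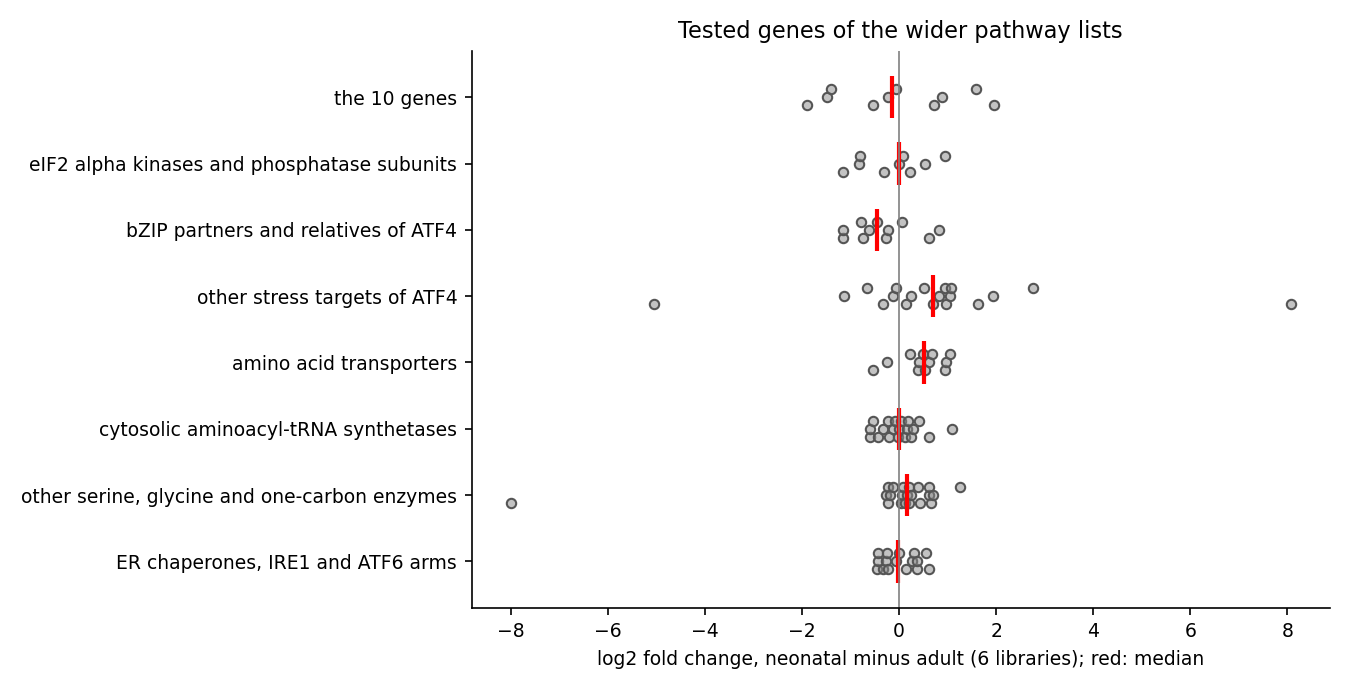
Log2 fold change, neonatal minus adult on 6 libraries, of every tested gene of the 10 and of the 7 wider lists, with the median of each list in red. Amino acid transporters lie mostly above 0 with a median of 0.51, while synthetases and endoplasmic reticulum genes centre on 0. The outermost points, Vldlr at 8.07 and Aldh1l2 at -8, are fitted values for genes with 0 counts in one group and are no measure of size.

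Likeness of pattern was measured as the root mean square difference of mean-centred log2 CPM over the 6 libraries, among 9031 genes with a mean of at least 5 CPM. Closest to Atf4 were Btbd1, Cnot2 and Ube2e1, at differences of 0.05, 0.06 and 0.06. Closest to Asns were Hfe, Ms4a6d and Il15ra, at 0.32, 0.37 and 0.43, and Hfe, for example, had 40.1, 19.8 and 73.7 CPM in adult replicates 1, 2 and 4, against 15.5, 11.1 and 5.13 CPM in the neonatal replicates 4, 7 and 8. Closest to Phgdh were Elovl6, Fam92a and Tmem41a, at 0.47, 0.59 and 0.60. Among the 10 genes themselves, Mthfd2 was nearest to Asns (0.88), Psat1 nearest to Phgdh (0.93) and Ddit3 nearest to Atf4 (0.36), all farther than the genes named first. Atf4 itself varied with a root mean square of only 0.26. Ddit3 was thus farther from Atf4 than a gene level in all libraries would be.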

How the data were processed

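The authors deposited raw read counts per gene for 6 libraries. Per the file headers, the counts came from featureCounts v1.5.1 on a UCSC gene annotation of mm10, with primary alignments only and no option for strand. Under that option a read that maps to several places is counted at its primary place. Trimmomatic, Bowtie, TopHat and DESeq2 are named in the submitters' processing notes without versions. Per the labels, reads were single-end and the library kit does not record strand.

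All genes were fitted with edgeR 4.0.16 in R 4.3.3 (filterByExpr with minimum count 10, TMM, robust quasi-likelihood F test, Benjamini-Hochberg adjustment, threshold 0.05). The SE is the absolute log2 fold change over the square root of F and is approximate. CPM used TMM-scaled library sizes and, for log2 values, a prior count of 2. The common biological coefficient of variation was 0.531. With 3 against 3 libraries an exact permutation test of 1 gene cannot go below p = 0.1, so none was run. The fit was tested on simulated data. Alternatives used limma 3.58.1 and DESeq2 1.42.0, other scalings and filters, thinning, a fit without the sex chromosomes, and fits that drop 1 library at a time. Added after the data were seen were a correction for exon length and 3 settings without neonatal replicate 4.

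The 10 genes and the lists were chosen with earlier results of these data known. Genes named from the lists were the 2 with the smallest p per direction and any that passed. Psph and Eif2ak4 were named for their role. Nearest genes by pattern passed over predicted genes and pseudogenes.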

Additional observations from a re-analysis of the deposited data

How the results depend on the processing

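Over 21 alternatives each, 9 of the 10 genes kept the sign of their log2 fold change wherever they could be fitted (Trib3 in 20). Ddit3 turned positive without adult replicate 2 (0.04), neonatal replicate 7 (0.19) or neonatal replicate 8 (0.17), in a range of -0.66 to 0.19 with each library left out. The count of the 10 called was 0 with 6 libraries except for 2 with limma voom with quality weights. It was 0 to 1 with each library left out in turn, 4 with DESeq2 without neonatal replicate 4, and 1 without that replicate under RLE size factors or library totals. The pathway lists had 0 called genes, but 4 with DESeq2, 4 with the likelihood ratio test, 6 with quality weights, 0 to 6 with each library left out, 31 with DESeq2 without neonatal replicate 4, and 7 without it under RLE or library totals. Over all genes 7 were called, against 759 with DESeq2, 1056 with quality weights, 594 with the likelihood ratio test, 4 with all libraries thinned, 0 without chromosomes X and Y, and 1 to 828 with each library left out. Without neonatal replicate 4 it was 3320 with DESeq2, 834 with RLE and 845 with library totals. The cause was not tested. Slc1a4 turned positive with limma voom (3.36), quality weights (4.15), without adult replicate 4 (7.57) and without neonatal replicate 4 (0.12, and 0.13 with DESeq2, 0.13 with RLE and 0.14 with library totals). With each library left out it ran from -0.84 to 7.57. Slc7a3 turned positive without neonatal replicate 8 (0.10, range -6.76 to 0.10) and Dnajc3 with the length trend removed (0.04). No paired analysis was possible because the groups share only replicate number 4. Trib3, Chac1 and Sesn2 had only 0, 0 and 4 counts in neonatal replicate 4. For Trib3 the limit of 0.897 CPM there is above adult replicate 1, at 0.536 CPM. For Chac1 that limit is below every adult library. For Sesn2 the upper end of the exact Poisson 95% interval, 3.06 CPM, is also below every adult library.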
